A study of Homo sapiens with 16 samples.

Results

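The DNA replication and S phase genes form a set of 39 genes chosen by their known function in copying the genome. The set and the time windows compared were also chosen with earlier results of these data known. The p-values below are therefore not a fresh test of the course they describe. A gene counted as measured where a probe carried its symbol, and the detected probe with the highest mean intensity stood for the gene. Of the 39 genes, 36 could be tested, out of 18190 gene symbols on the array. No probe carried the symbols GINS2 or TIPIN, and the CCNE1 (cyclin E1) probe was detected on 0 arrays. Of the 36 tested genes, 30 were detected on all 16 arrays.

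The cells were MCF10HER2, a line made by transducing the nontransformed breast epithelial line MCF10A for lasting over expression of HER2, a receptor tyrosine kinase of the EGF receptor family. Every culture was kept in serum-free, EGF-containing medium without insulin, and the treated ones received the HER2 kinase inhibitor CP724,714 (1 µM). RNA was collected every 3 h from parallel cultures, giving 1 untreated array at 0 h and 15 treated arrays from 3 h to 45 h. Each time point had 1 array and no replicate, so successive arrays of a time window stood in for replicates in every test. The medium was renewed at 0 h, and no untreated culture of a later hour was analysed here. Time in culture, fresh medium and the inhibitor therefore cannot be told apart in any change described here. In RNA from whole cultures, fewer cells in S phase and less of a transcript per cell cannot be told apart either.

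Before a cell copies its DNA, origins are licensed in G1 when CDC6 and CDT1 load the MCM helicase onto chromatin. Release of E2F transcription factors from RB at the G1/S boundary then turns on the genes for the helicase, the polymerases, the sliding clamp and the enzymes that make deoxynucleotides. Transcripts of these genes are known to be highest around the G1/S boundary and to fall when cells leave the cycle, and mitogenic signaling through receptors such as HER2 acts upstream of RB through cyclin D. G2/M genes, which serve mitosis, are turned on later in the cycle and were measured beside them.

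Because E2F is the known regulator of this set, the promoters were searched for 4 words of 8 bases that follow the E2F recognition pattern, namely TTTCCCGC, TTTCGCGC, TTTGCCGC and TTTGGCGC, on both strands and with overlaps counted. The RefSeq promoter table (GRCh38.p14) gives 250 bases before and 50 after each transcription start, and 35 of the 39 genes had an entry. Of these, 20 (57.1%) held 1 or more of the words, against 3.99% of all 27305 genes with an entry. Counted by entry, since some genes have several, the shares were 43.8% of 48 entries and 3.31% of 35116. A match is a description of the letters and not evidence of a bound factor. Of the 14 genes whose values on every array are given here, 12 had an entry and 7 held a word. The 80 bases just before the start are shown for the 6 of them with a word in that stretch, to show what the search found among the genes described in most detail. A word was also in the promoters of CDC6, MCM6 and CLSPN, whose probes were near background, and RFC4, RFC5, PRIM1, RRM1, CHAF1B and TK1 had none in this window. They run 5′ to 3′ along the gene, and capitals mark the word.
CDT1: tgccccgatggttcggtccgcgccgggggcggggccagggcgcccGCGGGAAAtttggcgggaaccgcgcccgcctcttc
E2F1: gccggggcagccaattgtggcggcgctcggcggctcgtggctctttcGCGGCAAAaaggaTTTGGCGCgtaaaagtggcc
E2F2: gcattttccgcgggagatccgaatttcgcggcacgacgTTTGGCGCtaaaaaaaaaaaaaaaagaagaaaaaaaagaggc
PCNA: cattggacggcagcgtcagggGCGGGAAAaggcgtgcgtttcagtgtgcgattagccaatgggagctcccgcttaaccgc
TYMS: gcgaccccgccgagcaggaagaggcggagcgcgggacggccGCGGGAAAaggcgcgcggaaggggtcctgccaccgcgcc
UHRF1: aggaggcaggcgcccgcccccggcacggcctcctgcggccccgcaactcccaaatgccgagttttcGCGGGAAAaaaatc
The stretches lie at chr16:88803709-88803788 (plus strand) for CDT1, chr20:33686386-33686465 (minus strand) for E2F1, chr1:23531234-23531313 (minus strand) for E2F2, chr20:5126623-5126702 (minus strand) for PCNA, chr18:657573-657652 (plus strand) for TYMS and chr19:4909421-4909500 (plus strand) for UHRF1. Each ends at the base before the transcription start of its entry. TTTCCCGC, read on the opposite strand as GCGGGAAA, was the word in CDT1, PCNA, TYMS and UHRF1, while E2F2 carried TTTGGCGC and E2F1 carried both TTTGGCGC and, on the opposite strand, TTTGCCGC.

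The arrays themselves fell into groups. Background signal was 135.9 to 148.9 on the 8 arrays up to 21 h and 164.5 to 173.9 on the 8 arrays from 24 h, so the comparison across 24 h cannot be told apart from this split, whereas the other comparisons lie within one side of it. The windows 12-21 h, 24-33 h and 36-45 h are also sets of 4 successive arrays, and the root mean square change of all probes from one array to the next was 0.32, 0.17 and 0.20 (log2) at 9-12 h, 21-24 h and 33-36 h, where these sets meet. It was 0.09 to 0.16 inside these 3 windows and 0.23 to 0.31 between the arrays up to 9 h. A grouping of arrays by 4 and the time windows cannot be told apart, in the rise at 12-21 h and the fall at 36-45 h as well. The labels name no chip. Signal was weakest on the 9 h and 18 h arrays, whose upper quartile intensities were 397 and 418 (553 to 804 elsewhere). ERBB2, the gene of HER2, had a probe detected on 7 arrays and lay near background on every array, between 7.91 and 7.99 (log2), and it passed no comparison. This probe therefore does not bear out the labelled over expression of HER2; whether it can detect the transcript was not tested. Of 14 epithelial markers 11 were tested. KRT5 and KRT18 were among the brightest, both detected on all arrays with levels of 14.96 and 14.19 at 0 h. Others lay near background over the course: CDH1 between 7.95 and 8.10, TP73L between 7.85 and 8.15, CLDN4 between 8.02 and 8.32 and KRT19 between 8.04 and 8.43. At 3-6 h KRT17 rose by 1.72 and KRT8 fell by 0.84, while the other 9 did not pass. At 12-21 h 4 of the 11 rose and 4 fell, against 22.1% and 24.8% of all probes. At 24-33 h 1 rose, against 0.357%, and at 36-45 h 3 rose and 3 fell, against 11.5% and 11.2%. Of 14 markers of other cell types 4 were tested, and CD68, a lysosomal protein prominent in macrophages, rose by 1.71 from 3-6 h to 12-21 h (adjusted p = 3.7e-09), while PTPRC, which marks blood cells, was detected on 7 arrays and lay between 7.88 and 7.96 over the course. PECAM1, an endothelial marker, also rose at 12-21 h, and CD68 fell in both later comparisons. Whether these markers have a part in the results was not tested.

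The replication genes, taken by their median, were lower at 3 h and 6 h than at 0 h, higher than at 0 h from 12 h to 33 h, and lower again from 36 h. The median over the 36 genes, as log2 signal relative to the 0 h array, was -0.78 and -0.69 on the 3 h and 6 h arrays, -0.14 on the 9 h array and 0.30 on the 12 h array. It then went to 0.08 by 21 h, 0.39 by 24 h and 0.10 by 33 h, and from 36 h to 45 h it lay between -0.29 and -0.24. The median of all 12321 tested probes stayed within 0.01 of 0 throughout. In a smooth curve over time (natural cubic spline, limma), 28 of the 36 genes were time-dependent, against 41.9% of all probes. The 8 that did not pass were CDC6, MCM5, E2F1, CCNE2, TYMS, CHAF1B, SLBP and CLSPN. TYMS, with an adjusted p of 0.054, nevertheless passed 3 of the comparisons between time windows. Without the 3 h array 17 genes were time-dependent, and without the 9 h and 18 h arrays 19. With the arrays to 21 h and from 24 h as a block 19 were, and with eBayes without trend 10. With sets of 4 arrays as a block, an alternative chosen after seeing the data, 2 were. The share of all probes under these settings was not counted.

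**Figure D1:**
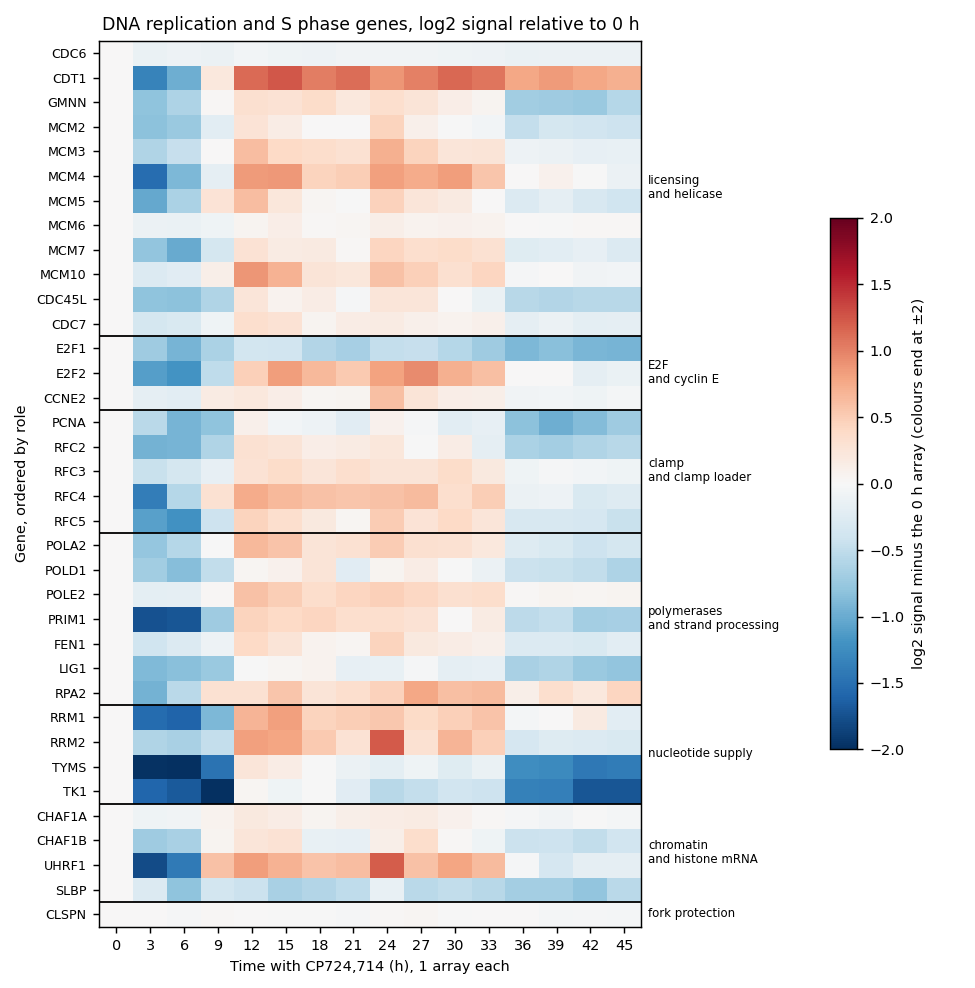
Log2 signal of the 36 tested replication genes minus the 0 h array, with time in hours on the x axis and genes, ordered by role, on the y axis. Blue at 3 h and 6 h, red from 12 h to 33 h and blue again from 36 h shows the course of most genes, and CDC6, MCM6, CHAF1A and CLSPN are pale throughout.

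**Figure D2:**
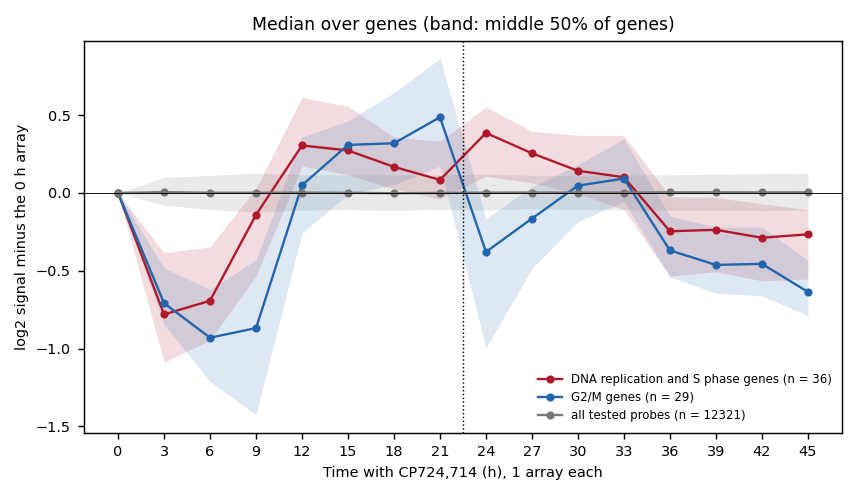
Median log2 signal relative to 0 h over the replication genes (n = 36), the G2/M genes (n = 29) and all tested probes (n = 12321), against time in hours; bands hold the middle 50% of genes and the dotted line marks the change in array background. The replication median was 0.30 at 12 h and 0.39 at 24 h, and at 24 h the G2/M median was -0.38.

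The first comparison asked how far the genes fell after the inhibitor was added. At 3-6 h, 28 of 36 genes were lower than at 0 h (limma, adjusted p under 0.05), against 8.13% of all probes, and 0 were higher, against 7.38%. The difference was negative for all 36, with a median of -0.76, or 1.69-fold lower. The 8 that did not pass were MCM10, CCNE2, POLE2, FEN1, RRM2, CHAF1A, SLBP and CLSPN. On the 3 h array MCM10, POLE2, CHAF1A and RRM2 read 7.98, 7.93, 8.03 and 8.06, near background, where a larger fall could hardly show. CDC7 and CDC45L, which passed, read 7.91 and 7.98 there. Whether this limit has a part in which genes passed was not tested. By array, 35 genes were lower at 3 h than at 0 h and 36 at 6 h, against 5915 and 6078 of all 12321 probes. The lowest array of the whole course was 3 h or 6 h for 31 of 36 genes, against 23.7% of all probes. With the 9 h array added to the early window, 15 genes were lower than at 0 h. Of the genes given by array below, CDT1, MCM2, MCM4, RFC4, RPA2, CHAF1B and UHRF1 then no longer passed (adjusted p from 0.069 to 0.43). The 0 h window is a lone array and was assumed to vary like the others.

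At the 1.7-fold threshold used in the study, with 0 h as the baseline chosen here, 23 genes were below 0 h at some hour, against 9.41% of all probes, and 8 were above it, against 10.8%. The 8 were CDT1, MCM4, MCM10, E2F2, RPA2, RRM1, RRM2 and UHRF1. The number that far below 0 h was 19 on the 3 h array, 17 on the 6 h array, 4 on the 9 h array and 0 from 12 h to 33 h, and 4 or 5 on each array from 36 h. Of all probes, 2.35% were that far below at 3 h, 3.11% at 6 h and 4.14% at 9 h. The share was from 3.21% to 3.68% on each array from 12 h to 33 h and from 4.04% to 4.42% on each array from 36 h.

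The second comparison concerned the return. At 12-21 h, 33 of 36 genes were higher than at 3-6 h, against 22.1% of all probes, with a median rise of 0.93, or 1.91-fold. None was lower, whereas 24.8% of all probes were. The exceptions were CDC6, SLBP and CLSPN. For the same 33 genes both early arrays lay below all 4 arrays of 12-21 h, which held for 25% of all probes. The highest array of the course was 12 h for 12 genes, 24 h for 9, 15 h for 5 and 27 h for 4, whereas 6.10% of all probes were highest at 12 h and 4.26% at 24 h.

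The third comparison spanned the change in array background. Between 12-21 h and 24-33 h, 0 of 36 genes were higher, against 0.357% of all probes, and 0 were lower, against 0.844%. At an unadjusted p under 0.05 there were 3 higher and 3 lower, against 7.02% and 8.08% of all probes, so that neither count stood far from the background. The smallest adjusted p was 0.063, for TK1, and the differences ran from -0.38 to 0.26 with a median of -0.01.

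The last comparison concerned the late decline. At 36-45 h, 32 of 36 genes were lower than at 24-33 h, against 11.2% of all probes, and 0 were higher, against 11.5%. All 36 differences were negative, with a median of -0.53, or 1.44-fold lower. The exceptions were CDC6, CDT1, SLBP and CLSPN. All 4 late arrays lay below all 4 arrays of 24-33 h for 34 genes, against 15.4% of all probes. The median change was -0.19 from 24 h to 33 h, -0.43 from 33 h to 36 h and -0.03 from 36 h to 45 h. Genes differed in this. From 24 h to 33 h and then to 36 h, TYMS changed by 0.06 and -1.11. MCM2 changed by -0.50 and -0.42, and MCM5 by -0.46 and -0.27. All 36 genes were lower at 36 h than at 33 h, against 6104 of all 12321 probes. In a fit with a step at 36 h beside a common slope over 24-45 h, chosen after seeing the data, the step passed for GMNN, PCNA, TYMS and TK1, against 1.06% of all probes. The slope was called lower for 0 genes and for 0 of all probes, so this fit does not set a step against a gradual decline. Over the 36 genes, the levels at 36-45 h were above those at 3-6 h by a median of 0.30, a difference that was not tested.

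**Figure D3:**
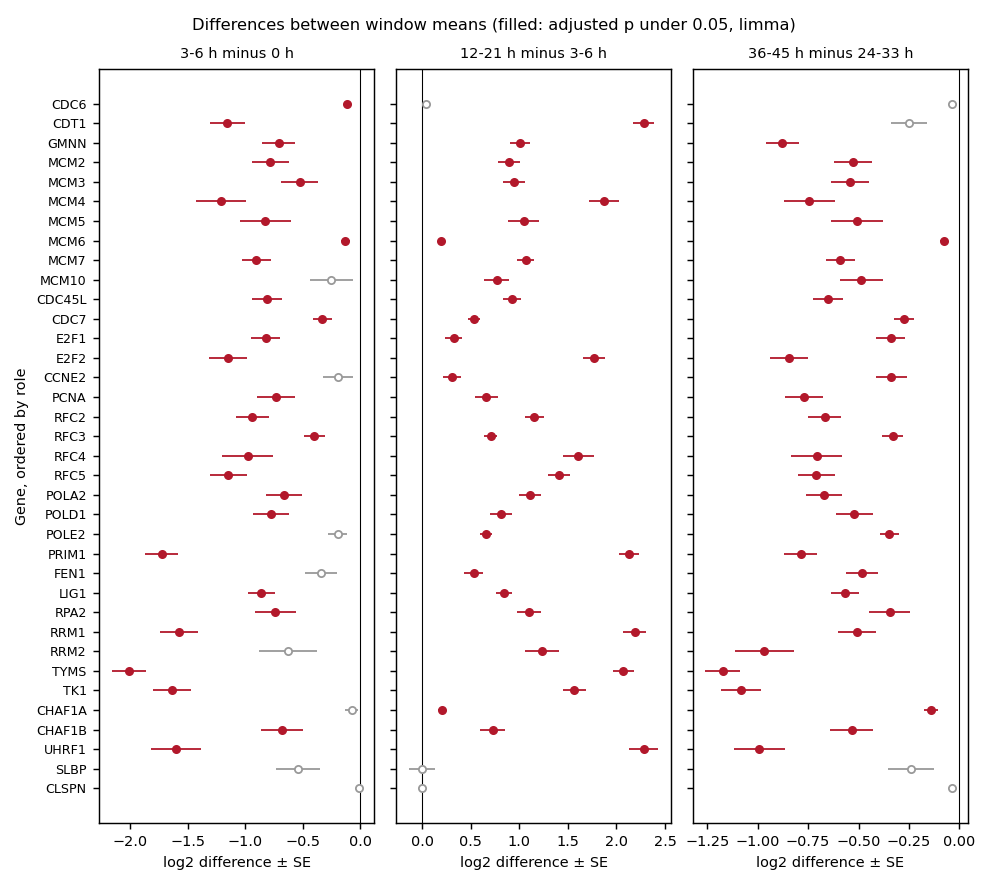
Log2 difference with its SE between window means for each of the 36 genes, ordered by role; filled points have an adjusted p under 0.05. The differences are below 0 for all genes at 3-6 h and at 36-45 h, and the 33 filled points of the middle panel lie above 0.

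The licensing and helicase genes mark origins and unwind DNA. Of 13 genes 12 were tested, and 11 fell, 11 rose and 10 fell late, with medians of -0.75, 0.93 and -0.52 at 3-6 h, 12-21 h and 36-45 h. CDT1, which loads the MCM helicase, had a log2 level of 9.73 on the untreated array and 8.40, 8.75 and 9.94 on the 3 h, 6 h and 9 h arrays. It then read 10.86, 10.97, 10.75 and 10.86 from 12 h to 21 h, 10.62, 10.74, 10.88 and 10.80 from 24 h to 33 h, and 10.50, 10.58, 10.50 and 10.44 from 36 h to 45 h. All arrays from 9 h lay above 0 h, and the rise from 3-6 h was 2.28 ± 0.11 (SE), or 4.86-fold (adjusted p = 9.5e-11). The late difference of -0.25 ± 0.09 did not pass (adjusted p = 0.051), although its 4 late arrays lay below the 4 before them.

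MCM4, a helicase subunit, was at 11.11 on the untreated array and 9.59, 10.21 and 10.93 on the 3 h, 6 h and 9 h arrays. Its levels were 11.97, 11.97, 11.55 and 11.60 from 12 h to 21 h, 11.94, 11.85, 11.95 and 11.66 from 24 h to 33 h, and 11.12, 11.20, 11.10 and 11.00 from 36 h to 45 h. The late arrays thus returned to the level of the untreated culture, while all 8 arrays from 12 h to 33 h were above it. MCM4 fell 2.31-fold at 3-6 h (adjusted p = 0.0010), rose 3.66-fold (adjusted p = 3.8e-08) and fell 1.67-fold late (adjusted p = 0.00036).

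MCM2, another subunit of the same helicase, was at 8.93 on the untreated array and 8.11, 8.20 and 8.73 on the 3 h, 6 h and 9 h arrays. It was at 9.20, 9.08, 8.95 and 8.94 from 12 h to 21 h, 9.39, 9.03, 8.92 and 8.88 from 24 h to 33 h, and 8.46, 8.59, 8.54 and 8.52 from 36 h to 45 h. Its highest array was 24 h, also the highest of MCM3 and MCM7. The first fall was 1.72-fold (adjusted p = 0.0032), the rise 1.85-fold and the late fall 1.44-fold. The remaining MCM genes differed more in size than in direction: MCM3, MCM5 and MCM7 rose 1.92-fold, 2.06-fold and 2.09-fold at 12-21 h, and MCM10, which activates the loaded helicase, had a first difference of -0.25 that did not pass (adjusted p = 0.42). MCM6 was detected on 13 arrays and had a range of 0.27, and CDC6, detected on 6 arrays, a range of 0.13, both near background. GMNN, the inhibitor of CDT1, fell 1.84-fold late, further than CDT1 in size. CDC45L (CDC45), a partner of MCM in the moving helicase, had both early arrays, at 7.98 and 7.96, below every later one, and CDC7, the kinase that fires origins, was highest at 12 h.

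The E2F and cyclin E genes act upstream of the rest. E2F1, an activator, was at 9.11 on the untreated array and 8.39, 8.19 and 8.47 on the 3 h, 6 h and 9 h arrays. It was at 8.75, 8.74, 8.53 and 8.45 from 12 h to 21 h, 8.64, 8.65, 8.55 and 8.40 from 24 h to 33 h, and 8.21, 8.27, 8.20 and 8.19 from 36 h to 45 h. No treated array reached the untreated one, and the mean of 36-45 h was 1.86-fold below 0 h (a log2 difference of -0.89). The rise of E2F1 at 12-21 h was 0.33 ± 0.09 (adjusted p = 0.0055), and without the 6 h array it was 0.22 and did not pass (adjusted p = 0.085), nor did it with array weights.

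E2F2, a second activator, was at 9.62 on the untreated array and 8.52, 8.42 and 9.11 on the 3 h, 6 h and 9 h arrays. It was at 10.10, 10.45, 10.27 and 10.14 from 12 h to 21 h, 10.43, 10.56, 10.33 and 10.22 from 24 h to 33 h, and 9.62, 9.62, 9.44 and 9.49 from 36 h to 45 h. In contrast to E2F1, all arrays of 12-33 h were above 0 h. E2F2 fell 2.22-fold (adjusted p = 0.00014), rose 3.41-fold (adjusted p = 2.3e-09) and fell 1.79-fold late (adjusted p = 7.0e-06). The CCNE2 (cyclin E2) probe was highest at 24 h, at 8.87, and rose at 12-21 h by 0.30 and fell late by 0.34. It was detected on 4 arrays although its mean deposited intensity was 434, against 206 for CDC6 with 6. Its detection p-values, like those of MCM7 on all arrays and PCNA on 6, did not lie on the steps a rank among control probes gives, as was the case for 7.20% of all probes; the reason was not tested.

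The clamp and clamp loader genes passed all 3 of these comparisons in 5 of 5 cases, with medians of -0.94, 1.15 and -0.71. PCNA, the sliding clamp that holds polymerases on DNA, was at 12.98 on the untreated array and 12.44, 12.04 and 12.17 on the 3 h, 6 h and 9 h arrays. It was at 13.08, 12.92, 12.87 and 12.75 from 12 h to 21 h, 13.06, 12.96, 12.77 and 12.81 from 24 h to 33 h, and 12.15, 12.01, 12.11 and 12.26 from 36 h to 45 h. PCNA was lowest at 39 h rather than early, and its 9 h array was still close to that of 6 h. It fell 1.66-fold (adjusted p = 0.0058), rose 1.58-fold (adjusted p = 0.00015) and fell late by 0.77 on the log2 scale (adjusted p = 2.0e-05).

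RFC4, a subunit of the clamp loader, was at 10.68 on the untreated array and 9.30, 10.11 and 10.99 on the 3 h, 6 h and 9 h arrays. It was at 11.42, 11.33, 11.26 and 11.23 from 12 h to 21 h, 11.28, 11.31, 11.02 and 11.17 from 24 h to 33 h, and 10.56, 10.59, 10.37 and 10.43 from 36 h to 45 h. The return had begun by 6 h, and the 9 h array was above the untreated one. RFC5, of the same complex, was at 10.13 on the untreated array and 9.04, 8.91 and 9.71 on the 3 h, 6 h and 9 h arrays, and so was lowest at 6 h. It was at 10.58, 10.46, 10.32 and 10.17 from 12 h to 21 h, 10.63, 10.39, 10.52 and 10.37 from 24 h to 33 h, and 9.81, 9.81, 9.78 and 9.68 from 36 h to 45 h. RFC4 and RFC5 rose 3.05-fold and 2.65-fold and fell late 1.63-fold and 1.64-fold. Second probes of RFC2, RFC3 and MCM7 were dimmer and moved in the same direction with smaller differences, for example 0.36 against 0.71 for RFC3 at 12-21 h. The second RFC3 probe did not pass at 3-6 h, with a difference of -0.10 (adjusted p = 0.18). Second probes of PCNA and RFC5 were detected on 0 arrays.

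The polymerase and strand processing genes make and join the new strands. All 7 rose at 12-21 h and fell at 36-45 h, and 5 fell at 3-6 h. PRIM1, the catalytic subunit of primase, was at 10.14 on the untreated array and 8.40, 8.43 and 9.43 on the 3 h, 6 h and 9 h arrays. It was at 10.59, 10.55, 10.57 and 10.48 from 12 h to 21 h, 10.48, 10.43, 10.16 and 10.30 from 24 h to 33 h, and 9.62, 9.66, 9.46 and 9.47 from 36 h to 45 h. Its early arrays stood more than 1 log2 unit below every other except 9 h. PRIM1 fell 3.31-fold (adjusted p = 6.6e-07), rose 4.38-fold (adjusted p = 9.5e-11) and fell 1.73-fold late (adjusted p = 4.2e-06).

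RPA2, part of the complex that coats single-stranded DNA, was at 9.36 on the untreated array and 8.42, 8.82 and 9.67 on the 3 h, 6 h and 9 h arrays. It was at 9.66, 9.91, 9.61 and 9.70 from 12 h to 21 h, 9.82, 10.14, 9.97 and 10.00 from 24 h to 33 h, and 9.48, 9.70, 9.58 and 9.78 from 36 h to 45 h. Unlike the other genes given by array apart from CDT1, its late arrays all stayed above 0 h. Its late difference of -0.35 ± 0.10 passed narrowly (adjusted p = 0.020) and did not without the 27 h, 36 h or 42 h array (adjusted p from 0.058 to 0.074), nor under median scaling or either other background setting. Among the others, LIG1, the ligase that joins Okazaki fragments, fell 1.82-fold and rose 1.79-fold, and FEN1, the nuclease that trims their flaps, had a first difference of -0.34 that did not pass (adjusted p = 0.11). POLA2 and POLE2, subunits of the priming and leading-strand polymerases, were highest at 12 h, and POLD1, the catalytic subunit of polymerase delta, at 18 h.

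The nucleotide supply genes had the largest median differences of the roles with more than 1 gene tested, -1.61, 1.82 and -1.03. The mean deposited intensities of RRM1, TYMS and TK1 were 4210, 3235 and 2809, and that of RRM2 was 707. Differences of weak probes are understated, and whether probe brightness has a part in this ranking was not tested. TYMS, which makes thymidylate, was at 11.95 on the untreated array and 9.97, 9.91 and 10.47 on the 3 h, 6 h and 9 h arrays. It was at 12.19, 12.09, 11.93 and 11.83 from 12 h to 21 h, 11.76, 11.86, 11.71 and 11.81 from 24 h to 33 h, and 10.70, 10.68, 10.51 and 10.55 from 36 h to 45 h. From 12 h to 33 h its arrays stayed close to the untreated one, and on either side of that stretch they were lower. TYMS fell 4.02-fold (adjusted p = 3.1e-07), rose 4.20-fold (adjusted p = 1.6e-10) and fell 2.25-fold late (adjusted p = 1.4e-07), both falls being the largest of the 36 genes with the background correction used here. With normexp from the signals alone, PRIM1 fell further than TYMS at 3-6 h, by 1.81 against 1.76.

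RRM1, the large subunit of ribonucleotide reductase, was at 11.68 on the untreated array and 10.13, 10.07 and 10.78 on the 3 h, 6 h and 9 h arrays. It was at 12.36, 12.50, 12.13 and 12.17 from 12 h to 21 h, 12.22, 12.06, 12.16 and 12.24 from 24 h to 33 h, and 11.64, 11.69, 11.85 and 11.47 from 36 h to 45 h. Its late arrays lay around the level at 0 h, whereas the mean of those of TYMS differed from it by -1.34. RRM1 fell 2.98-fold (adjusted p = 7.3e-06), rose 4.56-fold (adjusted p = 2.1e-10) and fell 1.42-fold late (adjusted p = 0.00086). RRM2, the small subunit, had its highest array at 24 h, at 9.89, and a first difference of -0.63 that did not pass (adjusted p = 0.11). TK1, which salvages thymidine, differed in timing: its lowest array was 9 h, at 9.85, and it was at 11.92 at 12 h.

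The chromatin and histone mRNA genes assemble new chromatin. UHRF1, which helps copy DNA methylation, was at 10.64 on the untreated array and 8.85, 9.22 and 11.22 on the 3 h, 6 h and 9 h arrays. It was at 11.47, 11.33, 11.20 and 11.26 from 12 h to 21 h, 11.85, 11.23, 11.43 and 11.26 from 24 h to 33 h, and 10.61, 10.30, 10.45 and 10.45 from 36 h to 45 h. By 9 h it was 2.18 above its mean at 3-6 h, the largest early return of the 36 genes with the settings used here, and its range of 3.00, or 7.99-fold, was the widest. UHRF1 fell 3.03-fold (adjusted p = 9.2e-05), rose 4.85-fold (adjusted p = 3.5e-09) and fell 1.99-fold late (adjusted p = 2.3e-05).

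CHAF1B, a subunit of chromatin assembly factor 1, was at 9.04 on the untreated array and 8.33, 8.39 and 9.09 on the 3 h, 6 h and 9 h arrays. It was at 9.28, 9.32, 8.88 and 8.87 from 12 h to 21 h, 9.15, 9.39, 9.06 and 8.95 from 24 h to 33 h, and 8.60, 8.63, 8.54 and 8.65 from 36 h to 45 h. Its arrays at 18 h, 21 h and 33 h were below 0 h. Its differences of -0.68, 0.73 and -0.53 passed, the first of them neither with array weights nor with the 9 h array added. CHAF1A, of the same complex, ranged over 0.27 in all. SLBP, which binds histone mRNA, was the exception among the brighter genes, with 0 h its highest array at 10.26 and a 12-21 h level close to that of 3-6 h (difference 0.00 ± 0.14). CLSPN, which protects stalled forks, was detected on 7 arrays and ranged over 0.08 near background. A probe listed as Pfs2, a RefSeq synonym of GINS2 (a helicase subunit), was not counted above. It was at 11.65 on the untreated array and 9.43, 11.51 and 10.08 on the 6 h, 12 h and 36 h arrays.

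**Figure D4:**
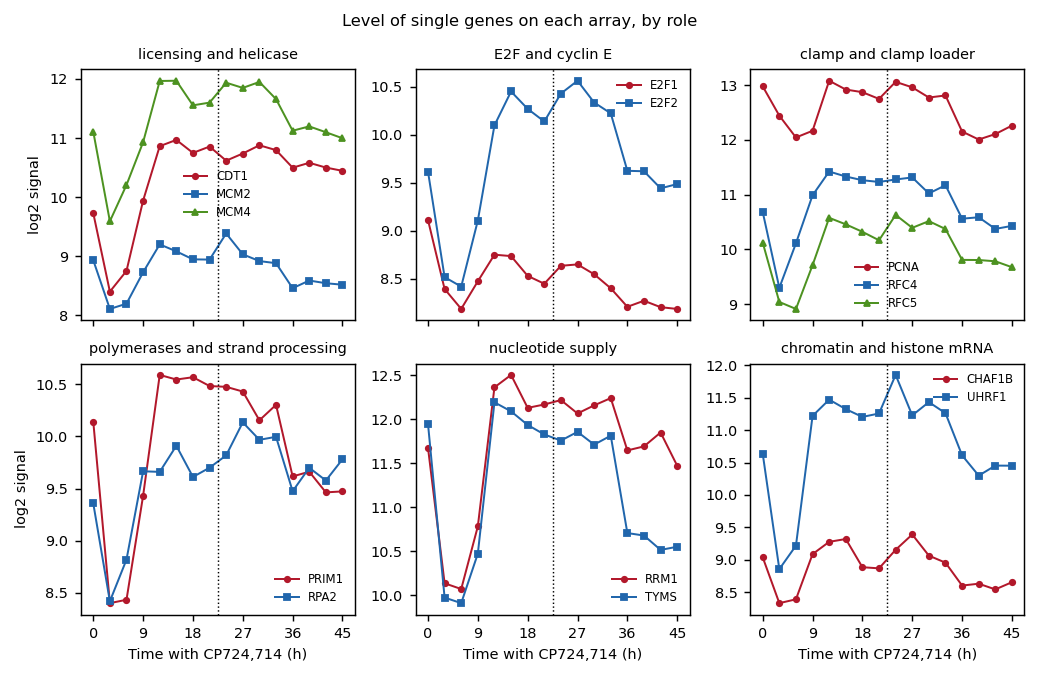
Log2 level of the 14 genes described by array, in 6 panels by role, against time in hours, with 1 array for each point; the dotted line marks the change in array background. TYMS and PCNA ended below 0 h, MCM4 and RRM1 near it and CDT1 and RPA2 above it, and E2F1 never regained its 0 h level.

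The genes of other parts of the cycle were set beside these. Of 32 G2/M genes 29 were tested, and 18 fell at 3-6 h, 28 rose at 12-21 h and 12 fell at 36-45 h, with medians of -0.82, 1.11 and -0.29. The shares of all probes were 8.13%, 22.1% and 11.2%. AURKB, a mitotic kinase, fell by 1.96 and rose by 2.37, and MAD2L1, of the spindle checkpoint, fell late by 0.99. Their hours differed from those of the replication genes. From 6 h to 9 h, 34 of 36 replication genes were higher, against 13 of 29 G2/M genes and 49.3% of all probes. At 9 h 13 G2/M genes were lowest, against 11.5% of all probes. From 12 h to 21 h the replication median went from 0.30 to 0.08 relative to 0 h while the G2/M median went from 0.05 to 0.49. At 21 h 17 G2/M genes and 0 replication genes were highest, against 3.38% of all probes. From 21 h to 24 h, 30 of 36 replication genes were higher and 29 of 29 G2/M genes lower, with median changes of 0.19 and -0.94, against 51.7% of all probes higher. This interval is also where array background changed. From 24 h to 33 h the replication median went down and the G2/M median up once more, and from 33 h to 36 h both were lower, with median changes of -0.43 and -0.55. The difference between the lists was not tested.

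**Figure D5:**
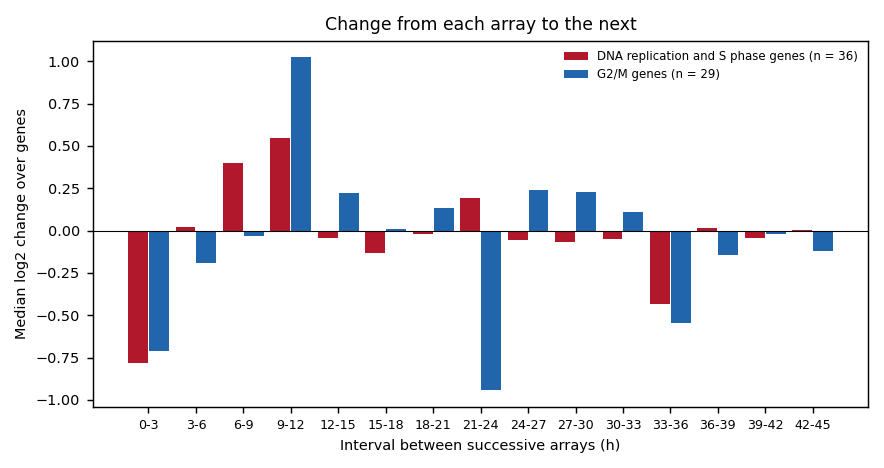
Median log2 change from each array to the next over the replication genes (n = 36) and the G2/M genes (n = 29), with the interval in hours on the x axis. The lists share a sign at 0-3 h, 9-12 h, 33-36 h and 39-42 h and differ in sign in every other interval. The widest difference was at 21-24 h, with 0.19 against -0.94.

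Of 53 further replication genes 36 were tested, and 11 fell at 3-6 h, 24 rose and 3 fell at 12-21 h, and 26 fell and 2 rose at 36-45 h. Of all probes, 8.13% fell and 7.38% rose at 3-6 h, and 22.1% rose and 24.8% fell at 12-21 h. At 36-45 h, 11.2% fell and 11.5% rose. In the lists of 14 and 12 tested genes below, counts of 2 or 3 are too small to set apart from these shares. ASF1B, a histone chaperone, fell by 2.01 at 3-6 h (adjusted p = 1.2e-06), and TIMELESS, of the fork protection complex, fell by 1.63. CDCA7 had its highest array at 12 h, at 11.00 against 9.26 at 0 h, and rose at 12-21 h (adjusted p = 4.5e-08), and RNASEH2A, which removes RNA from DNA, fell late by 1.13 (adjusted p = 5.9e-07). POLE4 ran the other way at 12-21 h, where it fell by 0.96, as did ORC2L (ORC2) and POLA (POLA1), which both fell by 0.52; all 3, and the late risers ORC2L and POLD4, were chosen for mention after their values were seen. Of 14 other E2F and RB genes, 3 fell and 2 rose at 3-6 h. E2F3 rose by 1.17 (adjusted p = 0.00043) and E2F7, a repressor, fell by 0.80 (adjusted p = 2.1e-05). At 12-21 h, 8 rose and 2 fell, with RBL2 and CDK2 up by 0.85 and 0.81, and at 36-45 h 6 fell, among them SKP2 by 0.65. Of 13 CDK inhibitors and G0 genes 12 were tested. At 3-6 h KLF4 and BTG2 fell by 0.91 and 0.82, at 12-21 h 6 fell, among them BTG1 by 0.89 and TOB1 by 0.81, and at 36-45 h 4 rose, among them CDKN2C (p18) by 0.42, and 2 fell, CDKN1A (p21) by 0.83 and BTG2 by 0.20.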

How the data were processed

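Per the methods of the study, RNA was hybridised to Illumina Ref-8 beadchips. The authors deposited an intensity for each of 20589 probes on each array, before normalization between arrays, with a detection p-value against the negative controls. Background was corrected by the neqc method of limma (3.58.1, under R 4.3.3). It took the level of the controls from the detection p-values and added an offset of 16. Quantile normalization and log2 followed. Weak probes stayed well above 0 after this step, with CDC6 between 7.90 and 8.03 (log2). Differences of weak probes are understated. With this setting 25 genes were 1.7-fold or more from 0 h, against 29 without background correction and 32 with normexp. The part of the offset in this was not tested. Tests covered the 12321 probes that were detected (p under 0.05) in at least 3 samples. Time was fitted with a natural cubic spline (4 degrees of freedom), and windows (0 h, 3-6 h, 9 h, 12-21 h, 24-33 h, 36-45 h) by contrasts of means, with eBayes (mean-variance trend) and Benjamini-Hochberg adjustment at 0.05 over all probes. P-values measure only the scatter between arrays, which may be technical, and the number of arrays limits the precision. Levels of different probes are not comparable. The members, windows and gene lists were chosen with earlier results of these data known. Values on every array are given for the 2 members of each role with the widest range among probes detected on all 16 arrays, and for PCNA, MCM2 and E2F1. Of other lists, mostly the largest or the 2 largest changes in a contrast are given. Scripts were tested on simulated data. Alternatives covered background correction, scaling, filter, probe choice, windows, fit and each array left out.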

Additional observations from a re-analysis of the deposited data

How the results depend on the processing

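The counts at 3-6 h, 12-21 h and 36-45 h were repeated with other background corrections, median scaling, either detection filter and averaged probes. They were also repeated with array weights, with eBayes without trend, and without the 9 h and 18 h arrays. They ran from 22 to 32, from 29 to 34 and from 29 to 34, with main values of 28, 33 and 32. Array weights gave the 22. Both counts of 29 came with probes detected on all 16 arrays, where 30 genes were tested. With 3-9 h in place of 3-6 h, 15 genes were lower than at 0 h. At 2-fold, 13 genes differed from 0 h at some hour, against 25 at 1.7-fold. The spline count of 28 was 10 with eBayes without trend and 19 with the arrays to 21 h and from 24 h as a block. It was 19 without the 9 h and 18 h arrays and, chosen after seeing the data, 2 with sets of 4 arrays as a block. The late count was 33 for a straight line over 24-45 h. For a step beside a slope, also chosen after seeing the data, it was 4. The causes were not tested. Leaving out each array in turn gave 17 to 33 genes for the spline (17 without the 3 h array), 28 to 30 at 3-6 h, 33 to 33 at 12-21 h, 0 to 0 higher at 24-33 h, 31 to 35 late and 20 to 25 at 1.7-fold; without the 0 h array the 3-6 h and 1.7-fold results have no baseline. Of 1064 repeats of the comparisons of the 14 genes given by array, 1041 kept their side of the threshold, 16 lost it, 7 gained it and 0 reversed. Beside the left-out arrays given above, the losses were RPA2 at 36-45 h under both other background settings and median scaling, E2F1 at 12-21 h and CHAF1B at 3-6 h under array weights, and with 3-9 h the 7 genes named beside that comparison; CDT1 made all 7 gains, at 36-45 h. No paired analysis was possible because no hour was sampled by more than 1 array. Probes near background throughout (CDC6, MCM6, CLSPN) or on the early arrays (among them MCM10, POLE2, CHAF1A and RRM2) limit what can be seen.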
